A study of Homo sapiens with 4 samples.

Results

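The genes of the RNA interference machinery were examined in SK-MEL-28 and A375 cells, 2 established lines from human melanomas. These are the 4 Argonaute genes (AGO1, AGO2, AGO3 and AGO4), the 3 TNRC6 genes (TNRC6A, TNRC6B and TNRC6C), DICER1, and the genes of the Dicer partners TARBP2 and PRKRA. The 10 genes were chosen by name, and each had 1 row among the 17755 genes of the deposited table. Each line was transfected with a control siRNA (siNC) or with siRNA against the long non-coding RNA LINC00622 (siLINC00622), for 6 h in medium without serum and then for 24 h with serum. RNA-Seq was done on 1 library per line and treatment, 4 in all, so the 2 treatments could not be tested within a line. All 4 groups received an siRNA with transfection reagent, and cells without siRNA were not analysed here.

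RNA interference is the pathway through which an siRNA acts. Dicer, with the double-stranded RNA-binding proteins TARBP2 or PRKRA, cuts double-stranded RNA into short duplexes. An Argonaute protein takes up 1 strand, the guide, and AGO2 is the Argonaute known to cut a target that pairs along the whole guide. All 4 Argonautes can also bind transcripts that pair only with the seed, the bases from position 2 to position 8 of the guide, mostly in 3′ UTRs. TNRC6 proteins (the GW182 family) bind Argonaute and recruit the enzymes that shorten and remove the poly(A) tail. The levels of these genes, and seed matches in them, are thus the background against which an siRNA experiment is read.

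Because the matches below depend on it, the sequence of each of the 2 siRNAs listed in the study's supplement is given first, as target and guide strand with the seed and its site in capitals. The labels do not say which of them, or whether both, went into the sequenced libraries. The siNC sequence was not used here. Both targets lie in the single LINC00622 transcript of GENCODE 29, on the minus strand of GRCh38 at chr1:119598699-119598717 and chr1:119598439-119598457 in the same order.
siLINC00622_1 target: ccctaaagaaaGTGAGAAa
siLINC00622_1 guide: tTTCTCACtttctttaggg
siLINC00622_2 target: ggcaacctctaATTGACTt
siLINC00622_2 guide: aAGTCAATtagaggttgcc

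The sites GTGAGAA and ATTGACT were searched, on the transcript strand, in the longest annotated 3′ UTR of each gene. The same 4 of the 10 genes, AGO1, AGO2, AGO3 and TNRC6A, held at least 1 match to each siRNA. Among 12365 genes with an annotated 3′ UTR and at least 10 counts in a library, 14.6% held a match to siLINC00622_1 and 11.6% a match to siLINC00622_2. The 3′ UTRs of these 3 Argonautes are long, 10921 bases for AGO1, 11888 for AGO2 and 16755 for AGO3, against a median of 1379 over the 12365 genes. AGO4, which had no match, has a 3′ UTR of 4285 bases. Of the 135 genes whose 3′ UTR has at least 10000 bases, 72.6% held a match to siLINC00622_1 and 60.7% a match to siLINC00622_2. TNRC6A differs from the 3 Argonautes in this respect, since its matches lie in a 3′ UTR of 2420 bases. Of the 4512 genes whose 3′ UTR has at least 2000 bases, 28.4% held a match to siLINC00622_1 and 23.7% a match to siLINC00622_2. That set has no upper limit and includes the 135 genes above, and shares among genes near 2420 bases were not computed. TNRC6B had no match to either siRNA in a 3′ UTR of 12567 bases.

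AGO3 held 5 matches to siLINC00622_1 and 2 to siLINC00622_2, AGO1 held 2 of each, AGO2 held 1 and 2, and TNRC6A held 1 of each. To show what such a match looks like, 1 site per siRNA is printed below for AGO1, AGO3 and TNRC6A, while the AGO2 sites are given by position only. The sites were chosen where the base opposite guide position 1 also paired if the gene had such a site. They lie in GRCh38 on the plus strand, and capitals mark the bases that pair with the seed.
AGO1, siLINC00622_1, chr1:35925889-35925895: ggataccccaGTGAGAAatcgtcagtg
AGO3, siLINC00622_1, chr1:36061541-36061547: agatttaccaGTGAGAAaccctgttga
TNRC6A, siLINC00622_1, chr16:24825621-24825627: ctgaaataatGTGAGAAcaatgggaaa
AGO1, siLINC00622_2, chr1:35920535-35920541: atttgaaggaATTGACTtcctcattca
AGO3, siLINC00622_2, chr1:36063485-36063491: aattcattgaATTGACTttgaaatgaa
TNRC6A, siLINC00622_2, chr16:24826017-24826023: ttcaatgtatATTGACTtccatactgg

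The matches in AGO2 began at bases 6833 (siLINC00622_1) and 914 and 1021 (siLINC00622_2) of its 3′ UTR, and in 1 of the 3, at base 1021, the base opposite guide position 1 paired too. In coding sequence, DICER1 was the only one of the 10 genes with a match, 1 to each siRNA, where 15.6% and 8.39% of all genes held one. With the shorter match to guide positions 2 to 7, 8 of the 10 genes held a site for each siRNA, where 47.1% and 35.0% of all genes did. A match is a stretch of shared letters and does not show that a guide was bound there.

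The library totals lay between 31269923 and 36384819 counts. LINC00622 itself had 309 counts under siNC against 135 under siLINC00622 in SK-MEL-28. In A375 these counts were 135 and 86. Its log2 ratio was -1.21 (95% counting interval -1.53 to -0.93) in SK-MEL-28 and -0.84 (-1.27 to -0.46) in A375. A counting interval here is the Clopper-Pearson interval of the ratio of the 2 counts, which covers counting error only and not the spread between cultures. The main test of treatment, the edgeR fit with cell line and treatment as terms, gave LINC00622 a log2 change of -1.05 ± 0.20 (SE, adjusted p = 0.106), which missed the threshold of 0.05. The lines also differ in pigment cell genes. Of 12 melanocyte lineage markers, 10 were over 1 FPKM in each SK-MEL-28 library and 6 in each A375 library. PMEL, a melanosome protein gene, was between 940 and 1134 FPKM in SK-MEL-28 and between 2.24 and 2.35 FPKM in A375. SOX10, a melanocyte lineage transcription factor gene, was between 118 and 153 FPKM in all 4 libraries. MIA went the other way at low levels, with 0.62 and 0.30 FPKM in SK-MEL-28 against 0.80 and 0.83 in A375. Of 18 markers of keratinocytes, fibroblasts, leukocytes and endothelial cells, 5 had a row, of which KRT10 was highest at 26.3 FPKM, and the other 13 were not analysed here.

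Levels between genes were compared as deposited FPKM, which divides by gene length. All 10 genes were expressed in every library, from 1.13 FPKM for TNRC6C in SK-MEL-28 to 16.5 FPKM for DICER1 in the same line. In SK-MEL-28, DICER1 was highest, with 15.3 FPKM under siNC and 16.5 under siLINC00622. TARBP2, a Dicer partner that is also part of the complex that loads Argonaute, followed with 10.2 and 11.2 FPKM. TNRC6A, the scaffold first known as GW182, came after it with 9.95 and 9.29 FPKM. AGO1 and AGO2 came next in overlapping ranges, then TNRC6B, AGO4, PRKRA, AGO3 and TNRC6C, with ranges over the 2 libraries that did not overlap between neighbours.

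In A375 the order was another. TNRC6A was highest with 15.0 FPKM under siNC and 14.0 under siLINC00622. TARBP2 had 13.0 and 13.2 FPKM, and AGO1 had 9.76 and 9.99. DICER1 was next, with 8.24 and 8.82 FPKM, and then AGO2 with 8.16 and 6.61. TNRC6C and TNRC6B then overlapped, TNRC6C with 3.12 and 3.38 FPKM and TNRC6B with 2.88 and 3.24, and AGO4, AGO3 and PRKRA were lowest. The spread behind this order is that of 1 library per treatment, and the order was not tested.

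**Figure D1:**
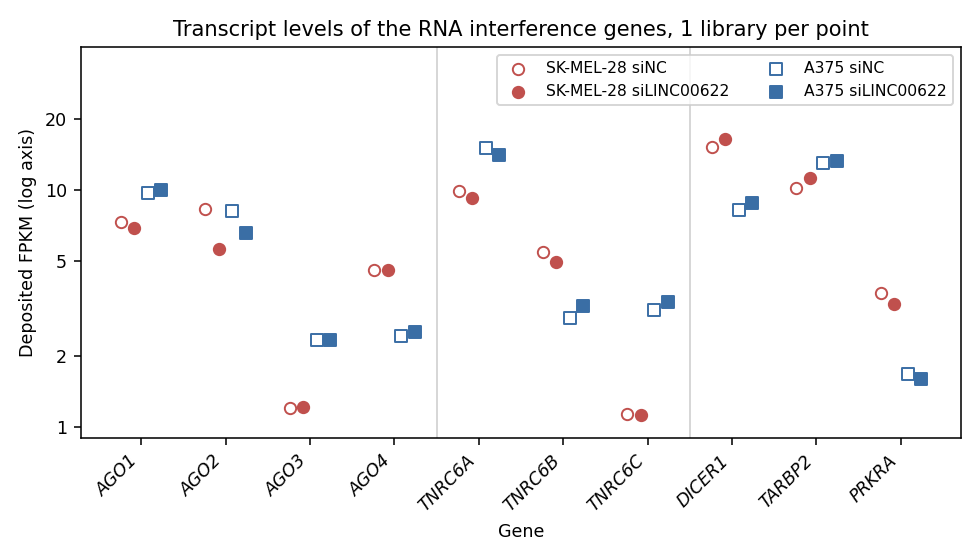
Deposited FPKM on a log axis for each of the 10 genes, with 1 point per library (circles, SK-MEL-28; squares, A375; open, siNC; filled, siLINC00622). DICER1 lies highest in SK-MEL-28 at 15.3 and 16.5, and TNRC6A highest in A375 at 15.0 and 14.0.

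The place of PRKRA, whose protein also activates the kinase PKR, depends on the length used. CPM divided by FPKM gave a length of 12061 bases for PRKRA, which is 3.06 times the 3941 bases its exons cover in GENCODE 29, while for the other 9 genes the 2 lengths were within 1.00 to 1.03 times of each other. Per kilobase of those exons, PRKRA had 11.2 CPM under siNC and 10.1 under siLINC00622 in SK-MEL-28, while A375 had 5.15 and 4.90. Counted from the highest, that put it at places 2 and 3 of the 10 genes in the SK-MEL-28 libraries and at place 6 in both A375 libraries, where FPKM put it at places 8 and 10. Why the deposited length of this gene is longer was not tested. The length itself cancels in comparisons of PRKRA between libraries. Whether the deposited counts include reads from outside the GENCODE 29 exons was not tested either. If they do, the values per kilobase of exons are too high, and comparisons between libraries include those reads.

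Among the Argonautes, AGO1 and AGO2 together took the larger part of the summed FPKM in each library. The sum over the 4 genes was 21.5 FPKM under siNC and 18.4 under siLINC00622 in SK-MEL-28, while A375 had 22.7 and 21.4. AGO2 held 38.8% of that sum under siNC and 30.8% under siLINC00622 in SK-MEL-28. In A375 it held 36% and 30.8%. AGO1 was the largest Argonaute in A375 in both libraries, at 43.0% and 46.6% of the sum. In SK-MEL-28, AGO2 was ahead of AGO1 under siNC, where AGO1 held 34.3%, and behind it under siLINC00622, where AGO1 held 37.7%. AGO4 made up 21.3% and 24.9% in SK-MEL-28 but 10.7% and 11.7% in A375, and AGO3 made up 5.59% and 6.61% in SK-MEL-28 but 10.3% and 10.9% in A375.

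The TNRC6 genes summed to 16.6 and 15.4 FPKM in SK-MEL-28 (siNC and siLINC00622) and to 21.0 and 20.7 FPKM in A375. TNRC6A was the largest of the 3 in every library, at 60.1% and 60.3% of the sum in SK-MEL-28 but 71.5% and 68.0% in A375. The remainder was split unequally in SK-MEL-28, where TNRC6B held 33.1% and 32.4% and TNRC6C 6.87% and 7.33%. In A375 the 2 genes were near each other, TNRC6B at 13.7% and 15.7% and TNRC6C at 14.8% and 16.3%. These are shares of transcript levels, and protein was not measured in these files.

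**Figure D2:**
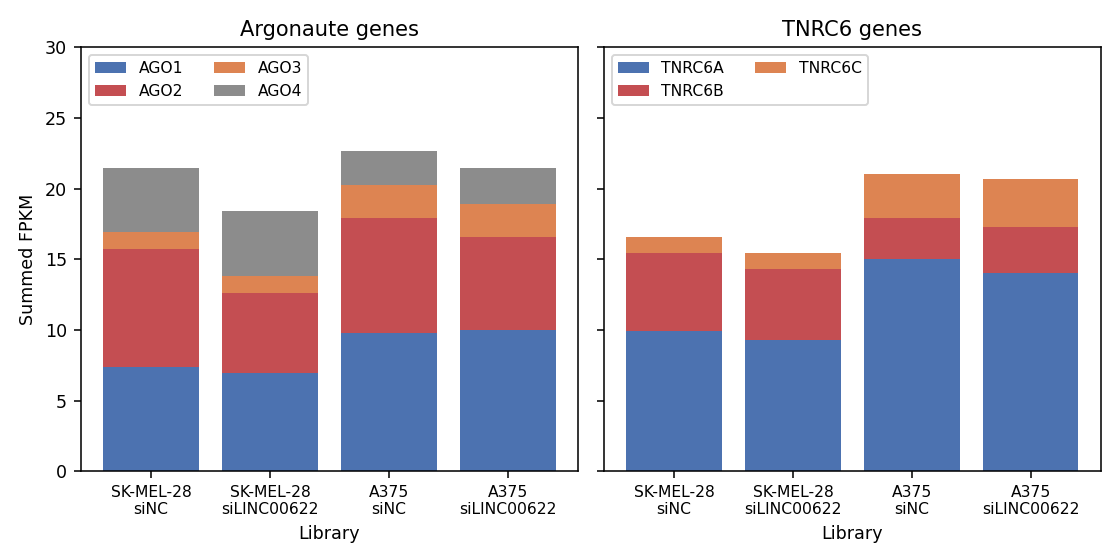
Summed FPKM of the 4 Argonaute genes (left) and the 3 TNRC6 genes (right) in each library, stacked by gene. AGO2 shrinks from 38.8% to 30.8% of the Argonaute sum in SK-MEL-28 and from 36% to 30.8% in A375, and TNRC6B and TNRC6C divide the part that TNRC6A leaves differently in the 2 lines.

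The comparison of siLINC00622 with siNC asks whether the machinery itself differed between the libraries whose other genes are compared. AGO2 had 4371 counts under siNC and 3065 under siLINC00622 in SK-MEL-28, and 4045 and 3809 counts in A375, where the second library was the deeper. On the FPKM scale these were 8.33 and 5.66 in SK-MEL-28, against 8.16 and 6.61 in A375. Both siLINC00622 libraries lay below both siNC libraries, and AGO2 was the only one of the 10 genes for which the treatments did not overlap across the lines. Of all genes, 11.7% had treatments that did not overlap, so 1 of 10 is near that share. Its log2 ratio of siLINC00622 over siNC, scaled by TMM, was -0.54 (95% counting interval -0.61 to -0.48) in SK-MEL-28 and -0.30 (-0.36 to -0.23) in A375.

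As a percent change of AGO2 relative to the other genes of the library, that is -31.4% in SK-MEL-28 and -18.6% in A375. No member was more than 1.5-fold higher or lower in either line, with AGO2 in SK-MEL-28 just inside that limit. For all genes tested, 4.56% were more than 1.5-fold higher and 6.49% more than 1.5-fold lower in SK-MEL-28, with 4.52% and 4.34% for A375. A lower log2 ratio than that of AGO2 was found for 7.50% of 15442 genes in SK-MEL-28 and 14.5% of 16021 genes in A375. Both ratios at or below those of AGO2 were found for 2.82% of the 14721 genes tested in both lines. The genes compared had at least 10 counts in a library, and shares among genes with counts like those of AGO2 were not computed. Ratios of low-count genes spread more. The median size of the log2 ratio was 0.19 over all genes tested in SK-MEL-28 and 0.14 over those with at least 400 counts. In A375 these were 0.18 and 0.14.

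Across the lines, the paired edgeR fit gave AGO2 a log2 change of -0.41 ± 0.10 (SE, adjusted p = 0.146), which was not called. None of the 10 genes was called, in a fit that called 0.116% of 16310 genes as higher and 0.166% as lower. At an unadjusted p under 0.05 in this fit, 1 of the 10 genes (AGO2) and 2388 of all 16310 genes passed. The share among the members was thus not above that among all genes. DESeq2 called none of the 10 either and gave AGO2 an adjusted p of 0.0930. The test has 1 residual degree of freedom, and the 2 lines stand in for replicates. Its p-values set the size of a change against a spread that is estimated largely over all genes.

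**Figure D3:**
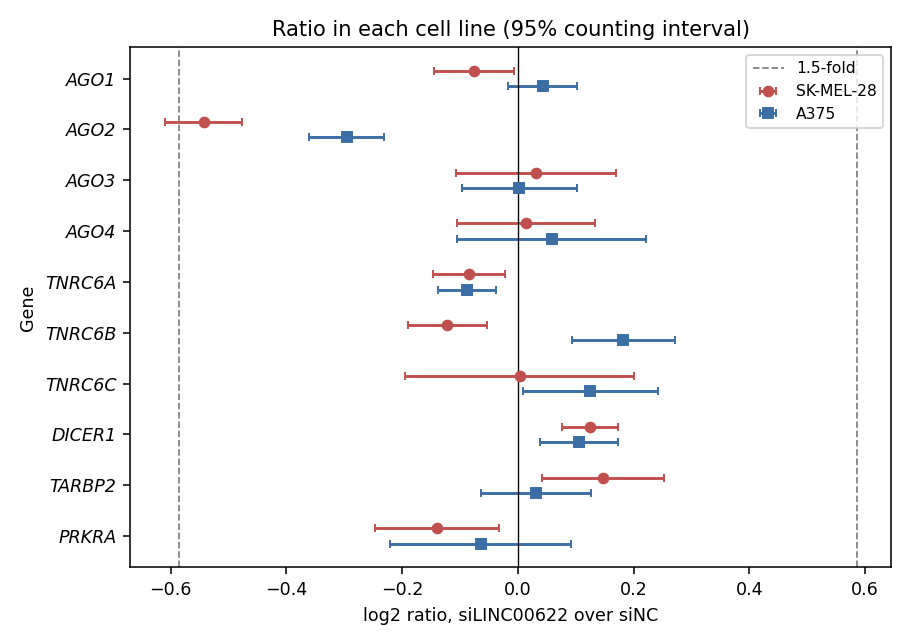
Log2 ratio of siLINC00622 over siNC for each gene in SK-MEL-28 (circles) and A375 (squares), with 95% counting intervals and dashed lines at 1.5-fold. AGO2 lies lowest in both lines, at -0.54 and -0.30, and all other members lie between -0.14 and 0.18.

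The other Argonautes stayed close to their control. AGO1 had 3389 counts under siNC and 3286 under siLINC00622 in SK-MEL-28, while A375 had 4239 and 5048. Its log2 ratios were -0.08 (-0.15 to -0.01) and 0.04 (-0.02 to 0.10). The ratios of AGO3 were 0.03 (-0.11 to 0.17) in SK-MEL-28 and 0.00 (-0.10 to 0.10) in A375. For AGO4 they were 0.01 (-0.11 to 0.13) and 0.06 (-0.11 to 0.22), so that neither gene's counts could be told apart between treatments at this depth. Without AGO2, the summed FPKM of the Argonautes gave log2 ratios of -0.05 (SK-MEL-28) and 0.03 (A375), against -0.22 and -0.08 with it. AGO1, AGO3 and AGO4 thus had ratios nearer 0 than AGO2 in both lines.

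Of the TNRC6 genes, TNRC6A was slightly lower and alike in both lines. Its counts (siNC and siLINC00622) were 4273 and 4118 in SK-MEL-28, with 6094 and 6628 in A375, and its log2 ratios were -0.08 (-0.15 to -0.02) and -0.09 (-0.14 to -0.04). TNRC6B, a paralogue with the same role, went in opposite directions. It had 3629 and 3408 counts in SK-MEL-28, a log2 ratio of -0.12 (-0.19 to -0.05), and 1800 and 2361 counts in A375, a log2 ratio of 0.18 (0.09 to 0.27). Both intervals lay apart from 0, which in opposite directions was so for 6.40% of the 14721 genes, a share not matched for counts. TNRC6C had 419 and 429 counts in SK-MEL-28, a log2 ratio of 0.00 (-0.19 to 0.20), and 1083 and 1366 in A375, a log2 ratio of 0.13 (0.01 to 0.24). Adjusted p-values of the 3 TNRC6 genes in the paired fit were between 0.731 and 0.911.

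DICER1 was the only member whose interval lay above 0 in both lines. Its counts were 6408 under siNC and 7140 under siLINC00622 in SK-MEL-28, while A375 had 3269 and 4067. The log2 ratios were 0.12 (0.08 to 0.17) and 0.11 (0.04 to 0.17), and the paired fit gave 0.13 ± 0.08 (SE, adjusted p = 0.544). TARBP2 had 1383 and 1565 counts in SK-MEL-28, a log2 ratio of 0.15 (0.04 to 0.25), and 1667 and 1970 in A375, a log2 ratio of 0.03 (-0.06 to 0.13). For PRKRA the counts were 1464 and 1358 in SK-MEL-28, a log2 ratio of -0.14 (-0.25 to -0.03), and 635 and 702 in A375, a log2 ratio of -0.06 (-0.22 to 0.09). The Dicer partners thus lay on opposite sides of 0 in SK-MEL-28, while their intervals held 0 in A375.

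Counting intervals lay above 0 for 2 members and below 0 for 5 in SK-MEL-28, and above 0 for 3 and below 0 for 2 in A375. Over all genes the shares were 22.9% and 24.0% in SK-MEL-28, against 23.8% and 22.0% in A375. Intervals were below 0 in both lines for 2 members, AGO2 and TNRC6A, where 11.9% of all genes were, and above 0 in both for 1, DICER1, where 11.0% were. The median size of the log2 ratio, without its sign, was 0.10 for the 10 genes and 0.14 for all genes with at least 400 counts in SK-MEL-28. In A375 it was 0.08 for the 10 genes and 0.14 for all such genes.

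**Figure D4:**
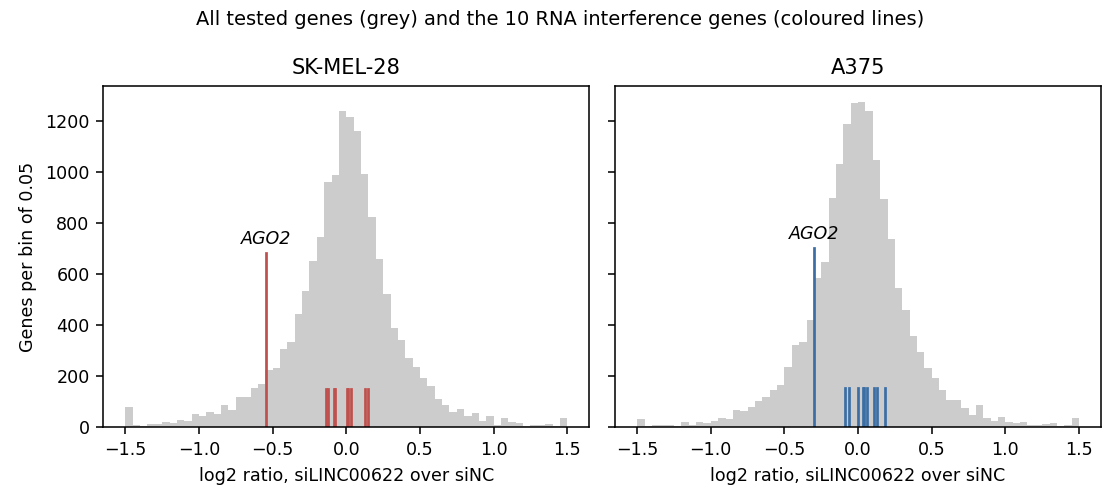
Number of genes by log2 ratio of siLINC00622 over siNC in bins of 0.05 (grey, with values beyond 1.5 in the outermost bins), and the 10 members as coloured lines, in SK-MEL-28 (left) and A375 (right). The AGO2 line, drawn taller, stands at -0.54 and -0.30, where 7.50% and 14.5% of genes lie lower, and the other 9 lines stand within the central peak.

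The 4 members with seed matches in the 3′ UTR can be set beside the 6 without. With matches, the log2 ratios in SK-MEL-28 were -0.08 for AGO1, -0.54 for AGO2, 0.03 for AGO3 and -0.08 for TNRC6A, and in A375 they were 0.04, -0.30, 0.00 and -0.09. Without matches they ran from -0.14 to 0.15 in SK-MEL-28 and from -0.06 to 0.18 in A375. The 4 genes with matches included the lowest ratio in each line, that of AGO2, and ratios near 0, those of AGO3. Per kilobase of 3′ UTR, TNRC6A had 0.826 matches, AGO3 0.418, AGO1 0.366 and AGO2 0.252. Whether either siRNA acted on these transcripts was not tested.

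The lines differed in most of these genes. In the paired fit, 8 of the 10 genes were called between SK-MEL-28 and A375, 4 as higher and 4 as lower in SK-MEL-28. This is close to the share among all genes, of which 68.8% were called, 33.8% as higher and 35.0% as lower. Libraries of the 2 lines did not overlap for 9 of the 10 genes and for 82.6% of all genes. In the test between the lines, the 2 treatments stand in for replicates of each line. It comes from the same fit as the treatment test and has the same residual degree of freedom. Its spread thus includes any treatment effect that differs between the lines, and the spread between cultures given the same siRNA was not measured.

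TNRC6C had the largest difference, with 419 and 429 counts in SK-MEL-28 against 1083 and 1366 in A375, a log2 difference of -1.35 ± 0.11 (SE, adjusted p = 5.97e-05). PRKRA had 1464 and 1358 counts in SK-MEL-28 against 635 and 702 in A375, a 2.38-fold difference (SE 0.10 on the log2 scale, adjusted p = 5.97e-05). DICER1 and AGO4 were each higher in SK-MEL-28 by 1.06 on the log2 scale, or 2.09-fold and 2.08-fold, with adjusted p-values of 4.92e-05 and 1.36e-04. TNRC6B was higher there by 0.94 ± 0.11 (SE, adjusted p = 3.00e-04). A375 thus had more TNRC6C and SK-MEL-28 more TNRC6B, Dicer and PRKRA transcript.

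AGO3, TNRC6A and AGO1 were lower in SK-MEL-28, by log2 differences of -0.78, -0.43 and -0.30 (adjusted p = 4.20e-04, 0.00340 and 0.0214). AGO2 and TARBP2 were not called, with log2 differences of 0.07 ± 0.10 (SE, adjusted p = 0.556) and -0.13 ± 0.10 (SE, adjusted p = 0.267). AGO2 changed places between treatments, since its difference was 0.20 between the siNC libraries and -0.06 between the siLINC00622 libraries. With library totals in place of TMM the median over all genes moved by -0.17, AGO2 turned to -0.10 and TARBP2 was called at -0.30 (adjusted p = 0.0325). For DICER1 the difference was 1.06 in both treatments, and for TNRC6B it was 1.10 between the siNC libraries and 0.78 between the siLINC00622 libraries.

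AGO4, AGO1 and AGO3 are neighbours on the plus strand of chromosome 1, at chr1:35808172-35857890, chr1:35869808-35930528 and chr1:35930718-36072500 in GRCh38. Within this cluster AGO4 was 2.08-fold higher in SK-MEL-28, while AGO1 and AGO3 were 1.23-fold and 1.72-fold higher in A375. AGO2, which lies apart from them on chromosome 8, was not called between the lines. The reads were not strand-specific by the library kit, so reads of an overlapping antisense gene could be counted on a member. Among partners with a row, exons overlapped on the opposite strand by 85 bases for PRKRA with AC009948.1, which had between 217 and 330 counts. They overlapped by 132 bases for PRKRA with PJVK (between 25 and 64 counts), and by 16 bases for TARBP2 with AC023509.4 (between 11 and 28 counts). Partners without a row overlapped TNRC6C by 1438 bases, AGO1 by 396, AGO3 by 86 and DICER1 by 80.

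**Figure D5:**
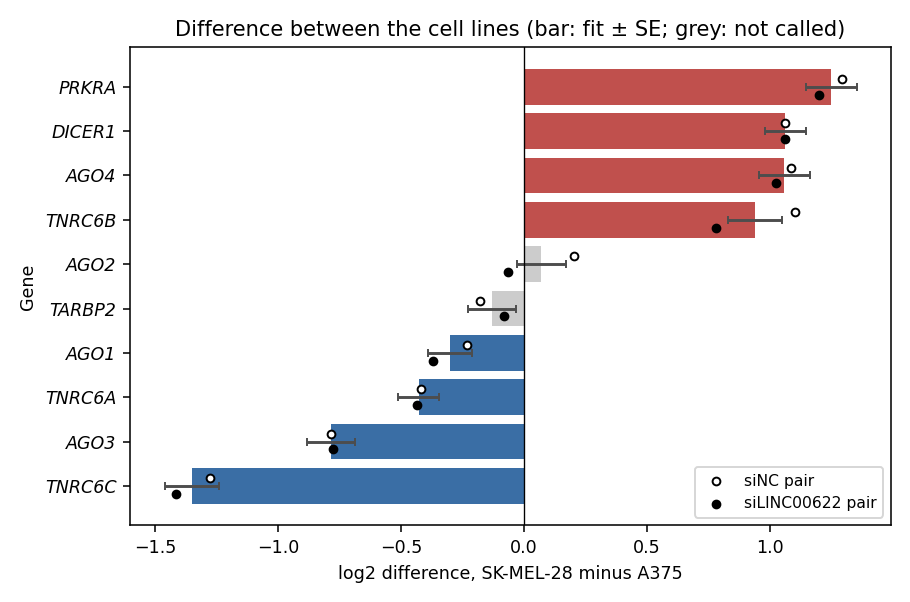
Log2 difference of SK-MEL-28 minus A375 for each gene from the paired fit (bars, ± SE; red and blue, called higher and lower; grey, not called), with the difference within each treatment as points. PRKRA, DICER1, AGO4 and TNRC6B lie at 0.94 or above, TNRC6C lies at -1.35, and AGO2 has 1 point on either side of 0.

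The other genes of the pathway were taken from 5 lists written from general knowledge, of which 84 genes had a row. None of the 84 was called between treatments across the lines, and 52 were called between the lines, 23 as higher and 29 as lower in SK-MEL-28. Of all genes, 0.116% and 0.166% were called higher and lower with treatment, and 33.8% and 35.0% higher and lower in SK-MEL-28, the shares against which the counts of each list below are to be read. None was more than 1.5-fold changed in the same direction in both lines. The median log2 change with treatment was -0.03 over the 84 genes and 0.01 over all genes fitted.

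Of the 7 genes of the microprocessor, the nuclear complex that starts miRNA processing, and of export from the nucleus, 3 were called higher and 1 lower in SK-MEL-28. DROSHA, the RNase of the microprocessor, had the largest line difference, with 2453 and 2669 counts in SK-MEL-28 against 4467 and 5324 in A375, a log2 difference of -0.76 ± 0.09 (SE, adjusted p = 2.70e-04). DROSHA and DICER1, the nuclear and the cytoplasmic RNase of the pathway, thus differed between the lines in opposite directions. SRRT, a factor that links the cap-binding complex to primary miRNA processing, had the largest change with treatment, with -0.23 (SK-MEL-28) and -0.34 (A375) as its log2 ratios and an adjusted p of 0.213 in the paired fit.

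Among 16 genes of chaperones and RNA-processing enzymes, listed as loading or finishing the Argonaute complex, 3 were called higher in SK-MEL-28 and 4 lower. TSN, a subunit of the C3PO endonuclease that removes the passenger strand, had 8960 and 7742 counts in SK-MEL-28 against 2753 and 2734 in A375, a log2 difference of 1.77 ± 0.09 (SE, adjusted p = 5.65e-06). FKBP5, an HSP90 co-chaperone, had the largest change with treatment, with log2 ratios of -0.42 and -0.31 (adjusted p = 0.191).

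Of 19 genes of the deadenylation machinery that TNRC6 recruits, 4 were called higher in SK-MEL-28 and 8 lower. BTG2, which binds the CCR4-NOT deadenylase, had both the largest line difference and the largest change with treatment. It had 93 and 97 counts in SK-MEL-28 but 536 and 1032 in A375. Its log2 ratio was 0.03 (-0.40 to 0.46) in SK-MEL-28 and 0.73 (0.58 to 0.89) in A375, the paired fit gave 0.48 ± 0.20 (SE, adjusted p = 0.339), and the line difference was -2.81 ± 0.21 (SE, adjusted p = 3.65e-05). BTG2 was the only gene of the 84 that passed 1.5-fold in A375, where 4.52% of all genes were that much higher and 4.34% that much lower.

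Among 18 genes of decapping, decay and P-bodies, 4 were called higher in SK-MEL-28 and 6 lower. AJUBA, a LIM-domain protein gene, had the largest line difference, with 370 and 273 counts in SK-MEL-28 against 3450 and 3116 in A375, a log2 difference of -3.19 ± 0.11 (SE, adjusted p = 1.44e-06). WTIP, of the same LIM-domain family, had the largest change with treatment at few counts, with 41 and 21 in SK-MEL-28 against 230 and 217 in A375 and an adjusted p of 0.418.

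Of 24 regulators and RNA-binding partners of Argonaute and Dicer, 9 were called higher in SK-MEL-28 and 10 lower. ELAVL1, which encodes the RNA-binding protein HuR, had the largest change with treatment. Its counts were 4716 and 2865 in SK-MEL-28, with 5743 and 5045 in A375, and its log2 ratios were -0.75 (-0.82 to -0.68) and -0.40 (-0.45 to -0.34). ELAVL1 thus lay below AGO2 in both lines, and the paired fit gave -0.56 ± 0.11 (SE, adjusted p = 0.112). ELAVL1 and WTIP were the 2 genes of the 84 that passed 1.5-fold in SK-MEL-28, both lower with siLINC00622, where 6.49% of all genes were that much lower and 4.56% that much higher. The largest line difference was that of EGFR, the growth factor receptor known to phosphorylate AGO2, with 49 and 66 counts in SK-MEL-28 against 1193 and 1447 in A375, a log2 difference of -4.35 ± 0.15 (SE, adjusted p = 1.61e-06).

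For TNRC6C, the member with the largest line difference, the 3 genes with the most similar pattern over the 4 libraries were LINC01234, BAX and CCZ1, among 10498 genes with at least 100 counts in every library. The measure was the greatest distance between log2 CPM values centred on each gene's mean, which was 0.02 for LINC01234, 0.02 for BAX and 0.04 for CCZ1. BAX, the pro-apoptotic gene, had 1584 and 1673 counts in SK-MEL-28 but 4143 and 5219 in A375. The likeness was taken over 4 libraries only, in a pattern made mostly by the cell line.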

How the data were processed

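Poly(A) RNA of 4 libraries was sequenced, 1 for each cell line and treatment. The authors deposited 1 table per gene with read counts, CPM, FPKM and TPM, all used here. The deposited counts are raw whole numbers, the deposited CPM values divide them by the library total, and the deposited FPKM and TPM values also divide by a gene length that is the same in all libraries. The submitters' processing notes name hg19, HISAT2, HISAT, TopHat2 and Bowtie2, with no version or role. Coordinates and 3′ UTRs were taken from GRCh38 with GENCODE 29, and none was taken from the files.

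Counts were scaled by TMM in edgeR 4.0.16 (R 4.3.3). Ratios within a line used a prior count of 2 and a minimum of 10 counts in either library of the line, and intervals are 95% Clopper-Pearson intervals. Treatment and line differences were tested with edgeR's quasi-likelihood test on all 4 libraries with cell line and treatment as terms, for 16310 genes with at least 10 counts in 2 libraries, with Benjamini-Hochberg adjustment over all of them and a threshold of 0.05. No source says that the libraries are separate cultures. Pairing comes from the cell line, which is the same in both treatments. On simulated counts for 16310 genes, the treatment test recovered 82 of 100 changes of 2-fold and 96 of 100 of 4-fold, with 5 unchanged genes called. The simulation used the common dispersion for every gene, and the same mean and the same change in both lines. The real data differ in these respects, so the recovery may be lower there. No change smaller than 2-fold was simulated. DESeq2 1.42.0 served as an alternative, and other steps used Python 3.11.15.

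The members, the lists and the tests were chosen with earlier results of these data known. The pathway lists were written from general knowledge. Named in the text are all 10 members and LINC00622, the gene of each list with the largest change with treatment and with the largest line difference, any list gene called between treatments or past 1.5-fold in both lines, and the 3 genes most like the member with the largest line difference. The genes named as pigment cell markers, KRT10 and the overlapping genes on the opposite strand were named after their values were seen. Alternatives covered scaling, prior count, filters, fold limit, the line or treatment term, the tool, single lines or treatments, TPM, the gene length and the seed match.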

Additional observations from a re-analysis of the deposited data

Results flagged for a closer look

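TNRC6B was the only member whose log2 ratio of siLINC00622 over siNC went in opposite directions in the 2 lines with both counting intervals apart from 0, at -0.12 in SK-MEL-28 and 0.18 in A375. With 1 library per condition the difference between the lines was not tested.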

How the results depend on the processing

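Of the 10 genes, 1 (AGO2 in SK-MEL-28) passed as lower at the smaller fold limit (0.32 on the log2 scale), and none passed 1.5-fold under any scaling, prior count or filter. All genes past the fold, higher and lower, were 704 and 1002 in SK-MEL-28, with 724 and 696 in A375. They became 200 and 294, and 131 and 171, with FPKM and a pseudocount of 1. With at least 50 counts they were 356 and 638, and 405 and 312, and at the smaller fold limit 2087 and 2470, and 2147 and 2089. Without a filter they were 1081 and 1478, and 1004 and 1064. The treatment calls, 19 higher and 27 lower, became 0 and 0 without the replicate block (the line term, that is the pairing), 144 and 159 with DESeq2, 1 and 0 with RLE scaling, and 57 and 64 without a filter. The cause was not tested. None of the 10 genes was called in any of these, and the adjusted p of AGO2 ran from 0.0930 to 1.00. Leaving out 1 line gives the within-line ratios, with no test; for AGO2 these were -0.54 and -0.30. Between the lines, AGO1 missed the threshold with DESeq2 (adjusted p = 0.0562), and 7 to 9 of the 10 genes were called across settings. The fewest were with DESeq2, which called 4455 of all genes as higher and 4246 as lower in SK-MEL-28. The most were with library totals, which called 4612 and 6750, against 5512 and 5710 in the main fit. No member's called direction was reversed. PRKRA moved from place 8 to 2 and 3 in SK-MEL-28 and from 10 to 6 in A375 with exon lengths, an alternative chosen after seeing the data; TPM gave the same places as FPKM. Seed matches were found in 4 of the 10 genes for each siRNA, in 8 with guide positions 2 to 7 and in 1 in coding sequence.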
